A study of Mus musculus with 8 samples.

Results

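Transcription elongation through chromatin is helped by histone chaperones and by the adaptor proteins that travel with RNA polymerase II, and 10 genes encoding such proteins are described here by the H3K36me3 carried on their gene bodies. The genes were chosen for their roles, and the list itself uses no H3K36me3 threshold. *Supt6* encodes the histone chaperone SPT6 and *Iws1* its binding partner. *Supt5* encodes the large subunit of the pausing and elongation factor DSIF. *Supt16* and *Ssrp1* encode the subunits of FACT, a chaperone that takes nucleosomes apart and rebuilds them. *Paf1*, *Ctr9*, *Leo1*, *Cdc73* and *Rtf1* encode subunits of the PAF1 complex, and *Wdr61*, which encodes a further subunit in mammals, was placed among the other elongation genes. They are 10 of 16344 protein-coding genes with at least 4 exons, and 10 of the 8767 genes called marked here, which had at least 10% of their gene body inside H3K36me3 peaks in at least 1 library.

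H3K36me3 is a histone mark written along transcribed genes by SETD2, a methyltransferase that rides on elongating RNA polymerase II, so the mark usually builds up towards the 3′ end of the gene body. In yeast, the counterparts of SPT6, FACT and the PAF1 complex restore chromatin behind the polymerase and, together with H3K36 methylation, keep cryptic start sites inside genes silent. The values below are the mark on the genes that encode these proteins, and they measure neither the amount nor the activity of the proteins.

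The data were ChIP–seq libraries of i4F mouse embryonic fibroblasts (MEFs), in which doxycycline induces a cassette of OCT4, SOX2, KLF4 and MYC (OSKM). All cells came from 1 embryo at E13.5 and were collected after 72 h in iPS cell medium, either untreated (MEF), with 2 µM added vitamin B12 (MEF B12), with 1 µg/ml doxycycline (OSKM) or with both (OSKM B12). The uninduced groups carried the same inducible cassette. A condition was represented by 1 H3K36me3 library with its input, so differences between conditions could not be set against replicates, and p-values are not given. Genes that define fibroblasts (6 of 6, among them *Col1a1* and *Vim*) held peaks in all 4 libraries, covering between 46.0% and 97.7% of their bodies in MEF and between 34.0% and 99.3% in OSKM. No peak was found in any library on 5 of 5 pluripotency genes or on 2 of 2 epithelial genes, so at this depth the mark gave no sign of either cell type. After duplicate removal, the H3K36me3 libraries held between 29046913 tags (MEF B12) and 33399267 tags (OSKM). Peaks numbered between 65473 and 69420 per library, and they covered 92.8 Mb in OSKM against 153.7 to 165.9 Mb in the other libraries.

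Each value rests on the authors' broad peaks. The covered share is the percentage of the gene body that lies in peaks. The pileup of a peak is the mean number of H3K36me3 fragments over its bases, and the scaled pileup is that number per 1000000 tags of the library. The density is the scaled pileup summed over the gene-body bases in peaks and divided by the length of the gene body, so it can be compared between genes. Bases outside peaks count as 0, although reads may lie there. The 95% intervals given after densities and ratios cover counting error only, not the spread between cultures or between precipitations. They take the called peaks as fixed, so they leave out the counting error in which bases were called and are too narrow to that extent. In a bulk library, fewer marked cells and less of the mark per cell cannot be told apart.

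The mark on these genes began inside the gene and not at the promoter. In the window from 250 bases before to 50 bases after the RefSeq start, 0 of the 8 members matched in the promoter table (all but *Iws1* and *Ctr9*) were touched by a peak in any library, beside 2.17% to 2.69% of all 32851 promoters of the table. Upstream sequence of *Cdc73* and *Rtf1* is shown as the unmarked side of the gene, since their annotated starts are the same in RefSeq and GENCODE (GRCm38.p6, 250 bases upstream of the start). *Cdc73* lies on the minus strand and its window is chr1:143702894-143703143. *Rtf1* lies on the plus strand and its window is chr2:119674818-119675067. Both are written 5′ to 3′ on the strand of the gene, and capitals mark matches to the motifs searched on both strands.
Cdc73: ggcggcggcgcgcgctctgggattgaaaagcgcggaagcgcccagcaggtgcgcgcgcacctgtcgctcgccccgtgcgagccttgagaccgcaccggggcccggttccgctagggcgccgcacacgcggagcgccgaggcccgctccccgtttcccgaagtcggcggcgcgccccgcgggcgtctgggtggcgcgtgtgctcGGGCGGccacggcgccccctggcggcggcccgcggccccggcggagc
Rtf1: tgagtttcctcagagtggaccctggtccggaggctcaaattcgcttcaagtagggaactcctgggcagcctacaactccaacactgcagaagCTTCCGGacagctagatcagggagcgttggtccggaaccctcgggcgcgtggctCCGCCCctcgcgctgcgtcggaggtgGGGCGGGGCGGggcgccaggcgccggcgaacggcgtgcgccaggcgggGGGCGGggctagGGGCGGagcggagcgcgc
The *Cdc73* stretch held 47 CpG dinucleotides and 1 motif match, and the *Rtf1* stretch held 28 CpG dinucleotides and 6 motif matches, of which an overlapping pair shares bases. The GC box GGGCGG was found in 6 of the 8 member windows and in 35.7% of all promoters. The ETS-type motif CCGGAAG was found in 2 of 8 and in 8.86% of all promoters. The TATA box TATAAA was found in 0 of 8 and in 13.6% of all promoters. These matches describe letters and were not tied to binding.

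Moving into the gene, the first peak base in MEF lay a median of 3598 bases from the transcription start site (TSS). It lay nearest in *Paf1*, at 1579 bases, and farthest in *Rtf1*, at 15215 bases. For some genes this 5′ border hardly moved between conditions and for others it moved by kilobases. Across the 4 libraries, its positions spanned 201 bases in *Ssrp1*, 441 in *Iws1* and 480 in *Cdc73*. They spanned 2832 bases in *Ctr9*, 3432 in *Supt5* and 12519 in *Rtf1*.

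Border sequences are shown for *Ssrp1*, as the gene whose border moved least, for *Ctr9*, as a gene whose border moved to another intron in OSKM, and for *Paf1*, which had a single peak in MEF (GRCm38.p6, plus strand). The *Ssrp1* window, chr2:85039115-85039414, lies in intron 3, and its capitals mark bases in a peak of all 4 libraries. The first *Ctr9* window, chr7:111031136-111031335, lies in intron 2, and its capitals mark bases in the first peak of MEF. The second *Ctr9* window, chr7:111033968-111034167, lies in intron 3, and its capitals mark bases in the first peak of OSKM. The *Paf1* window, chr7:28394430-28394629, lies in intron 2, and its capitals mark bases in the peak of MEF.
Ssrp1: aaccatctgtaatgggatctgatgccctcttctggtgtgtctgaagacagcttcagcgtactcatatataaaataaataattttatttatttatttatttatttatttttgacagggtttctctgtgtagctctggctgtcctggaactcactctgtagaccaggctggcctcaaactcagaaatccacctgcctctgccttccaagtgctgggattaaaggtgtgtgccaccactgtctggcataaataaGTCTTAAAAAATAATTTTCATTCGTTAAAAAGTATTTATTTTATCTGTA
Ctr9 in MEF: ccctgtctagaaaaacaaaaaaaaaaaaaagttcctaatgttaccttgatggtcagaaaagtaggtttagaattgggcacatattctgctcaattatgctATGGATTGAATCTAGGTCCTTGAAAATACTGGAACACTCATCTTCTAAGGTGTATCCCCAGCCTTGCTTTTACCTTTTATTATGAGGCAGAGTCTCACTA
Ctr9 in OSKM: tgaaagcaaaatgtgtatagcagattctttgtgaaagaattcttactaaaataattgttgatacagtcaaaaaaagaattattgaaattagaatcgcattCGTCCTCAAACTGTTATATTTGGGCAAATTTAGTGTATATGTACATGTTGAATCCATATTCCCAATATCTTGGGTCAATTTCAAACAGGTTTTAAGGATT
Paf1 in MEF: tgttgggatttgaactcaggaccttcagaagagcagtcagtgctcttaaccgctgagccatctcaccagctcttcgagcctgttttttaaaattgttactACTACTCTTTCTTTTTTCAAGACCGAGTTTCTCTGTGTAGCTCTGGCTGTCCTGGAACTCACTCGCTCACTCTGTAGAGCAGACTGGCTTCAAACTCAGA
The *Ssrp1* and *Paf1* windows consisted entirely of bases that the assembly marks as repeats (100% of each), compared with 40.0% of the *Ctr9* window in MEF and 11.0% of the *Ctr9* window in OSKM. The part that repeats play in where a peak begins was not tested.

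**Figure D1:**
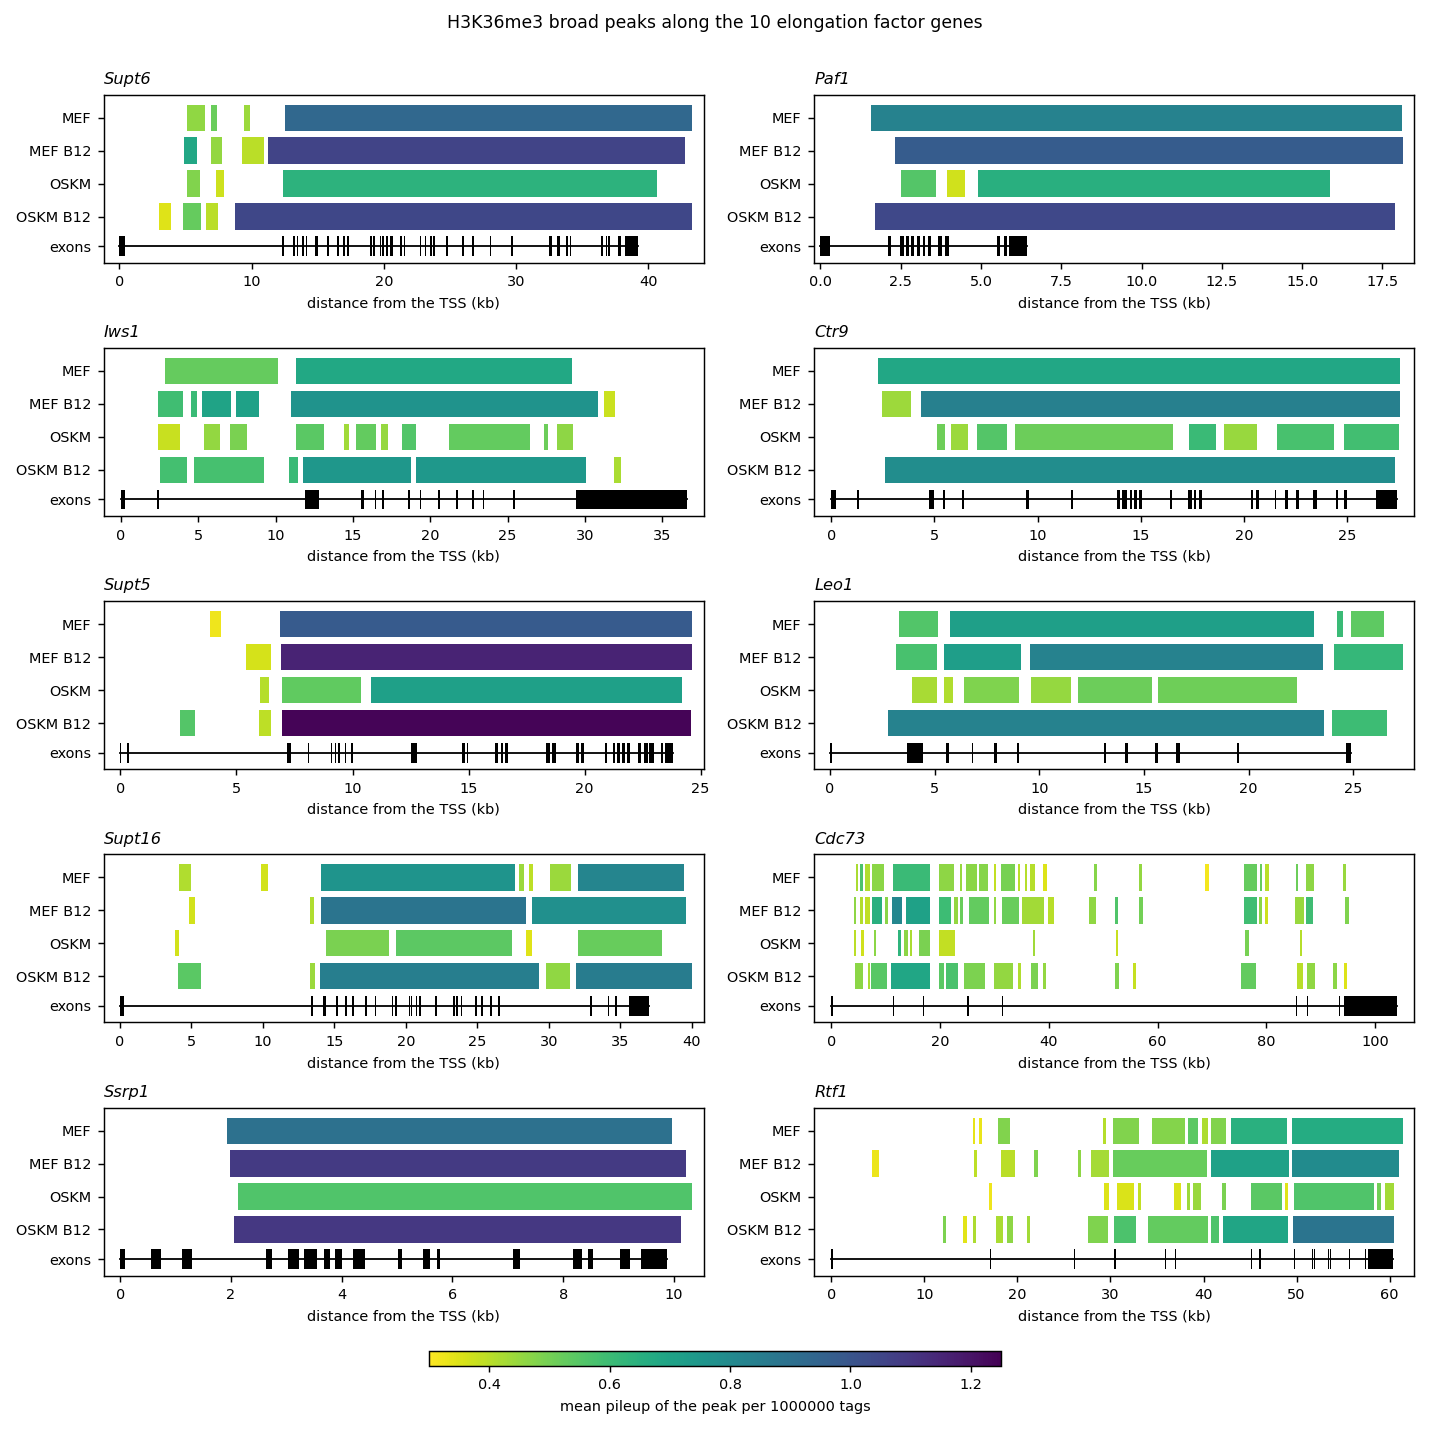
Position of every H3K36me3 broad peak on the 10 genes in each library, as the distance from the TSS in kb along the direction of transcription, with exons in black and the colour giving the mean pileup of the peak per 1000000 tags. *Ssrp1* kept 1 peak in each library, while *Ctr9* went from 1 peak in MEF to 8 in OSKM and back to 1 in OSKM B12.

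In untreated MEFs, the 10 genes had a higher median density than all marked genes, with a wide spread among them. The median density was 0.588 for the 10 genes and 0.286 for all marked genes. The mean covered share was 67.8% for the 10 genes and 48.9% for all marked genes. In order of MEF density, *Ssrp1* (0.722, interval 0.673 to 0.774), *Supt5* (0.706, interval 0.674 to 0.738) and *Supt6* (0.663, interval 0.639 to 0.687) came first. *Paf1* (0.629, interval 0.572 to 0.690) and *Ctr9* (0.626, interval 0.598 to 0.655) followed, and each gene down to this point overlapped in its counting interval with its neighbour in the order. *Leo1* (0.550, interval 0.523 to 0.579) came next, with an interval that overlapped that of *Paf1* but not that of *Ctr9*, and it lay above *Iws1* (0.437, interval 0.417 to 0.458) and *Supt16* (0.426, interval 0.407 to 0.447), whose intervals overlapped. *Rtf1* (0.278, interval 0.266 to 0.291) and *Cdc73* (0.143, interval 0.136 to 0.150) stood apart at the low end. *Ssrp1* had a higher MEF density than 96.9% of marked genes, *Rtf1* than 48.9% and *Cdc73* than 25.8%. Across the 10 genes, density was lower in longer genes (Spearman's rho −0.75 over 10 genes, which share 1 library), and across all marked genes the relation was weaker (rho −0.26). The shortest gene, *Paf1*, spans 6438 bases and the longest, *Cdc73*, spans 104094 bases.

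With OSKM induction the density was lower on all 10 genes, to about the extent seen on marked genes in general. In OSKM, 8 of the 10 genes were at least 1.5-fold lower than in MEF, as were 68.6% of marked genes. *Supt6* and *Supt5* differed by less. The count of 8 depended on the measure: it was 2 with a pseudocount of 0.2, 1 over the bases called in all 4 libraries and 0 relative to the median of all marked genes. In any amount, density was lower on 10 of 10 genes (98.0% of marked genes) and the covered share was lower on 10 of 10 (95% of marked genes). The median log2 change in density, with 0.05 added to each value, was −0.68 for the 10 genes, with a range from −1.07 in *Cdc73* to −0.50 in *Supt6*, and −0.71 for all marked genes. Relative to the median of all marked genes, the median of the 10 genes was 0.026, and *Supt6*, *Supt5*, *Supt16*, *Ssrp1*, *Leo1* and *Rtf1* lay above that general shift. The order of the genes depended on the setting. With peaks of a −log10 q of 5 or more, *Leo1* (−3.46), *Supt16* (−3.13) and *Iws1* (−2.93) fell most, and *Cdc73* was at −0.77. With a pseudocount of 0.2, *Paf1* (−0.79) fell most and *Cdc73* was at −0.50. The mean covered share of the genes went from 67.8% to 53.5%, and 9 of the 10 kept at least 10% of their body in peaks (79.2% of marked genes), *Cdc73* lying just below at 9.45%. The median longest peak per gene shortened from 16957.5 to 8130 bases, while the number of peaks touching the genes went from 57 to 65. That number fell on *Cdc73* (24 to 12), *Supt16* (7 to 5) and *Supt6* (4 to 3), stayed at 1 on *Ssrp1* and rose on the rest. Peak lengths and peak numbers per gene were not computed over all marked genes, so they are not shown to be particular to this set.

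Vitamin B12 added during induction came with higher density on every one of the genes. In OSKM B12, 10 of 10 genes were at least 1.5-fold higher than in OSKM, as were 95.2% of marked genes, and density was higher in any amount on 99.4% of marked genes. The median log2 change was 0.96 for the 10 genes, between 0.83 in *Supt6* and 1.31 in *Paf1*, and 0.98 for all marked genes, and relative to the latter the median of the 10 genes was −0.025. The covered share was higher on 10 of 10 genes (97.7% of marked genes), and its mean went from 53.5% to 71.0%. These comparisons share the OSKM library, so its level enters both.

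In uninduced cells, B12 came with smaller differences. In MEF B12, 0 of 10 genes were at least 1.5-fold higher than in MEF, as were 3.44% of marked genes. Density was higher in any amount on 9 of 10 genes, *Paf1* being the exception, and on 92.2% of marked genes. The median log2 change was 0.24 for the 10 genes and 0.21 for all marked genes. The covered share was higher on 7 of 10 genes and on 71.6% of marked genes. OSKM B12 was also set against MEF, a comparison that shares its libraries with the preceding ones. Here 0 of 10 genes were at least 1.5-fold higher (6.97% of marked genes), density was higher in any amount on 10 of 10 (91.7% of marked genes) and the covered share on 7 of 10 (71.4% of marked genes). The median log2 change was 0.26 for the 10 genes and 0.26 for all marked genes.

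**Figure D2:**
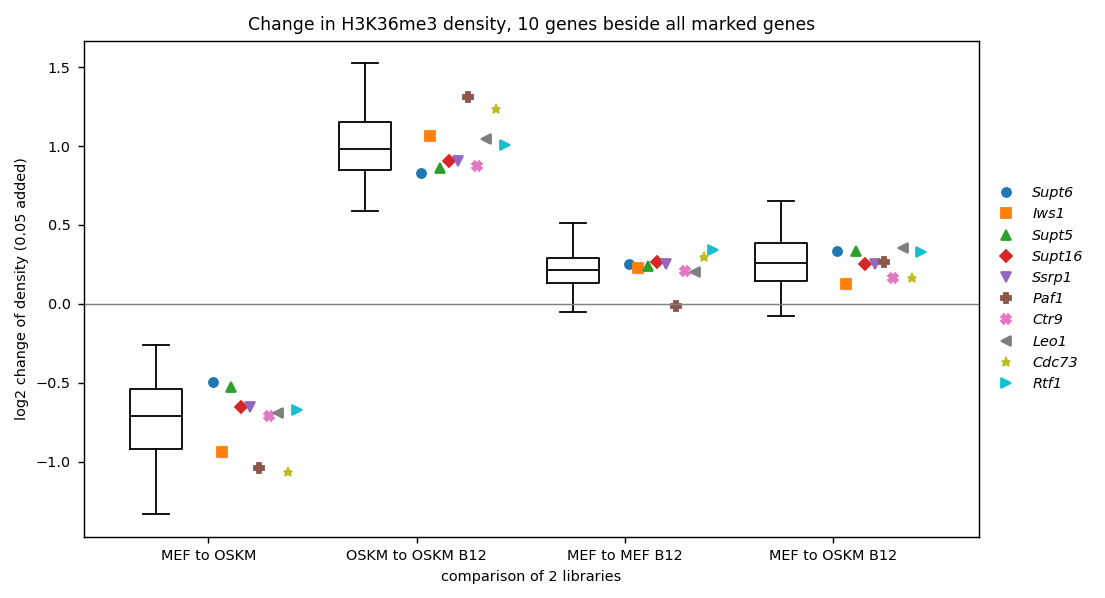
Log2 change of H3K36me3 density, with 0.05 added, for the 10 genes in each of the 4 comparisons, beside boxes for all 8767 marked genes (line at the median, box from the 25th to the 75th percentile, whiskers at the 5th and 95th percentiles). All 10 genes lie inside the whiskers in each comparison, with *Cdc73* and *Paf1* lowest from MEF to OSKM.

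The SPT6 pair differed within itself. SPT6, the product of *Supt6*, binds histones and the phosphorylated linker of RNA polymerase II. *Supt6* (chr11:78206746-78245987, minus strand, mm10) has 37 exons, and its density was 0.663 in MEF and 0.799 in MEF B12, beside 0.456 in OSKM but 0.848 in OSKM B12. OSKM was the lowest library and OSKM B12 the highest. The density in OSKM was 0.687 of that in MEF (interval 0.649 to 0.727), the highest such ratio of the 10 genes. Its covered share hardly followed, at 73.9% in MEF and 72.6% in OSKM, and a single long peak was present in both, with 30832 bases in MEF and 28352 bases in OSKM. That peak ran past the annotated transcript end site (TES) by 4107 bases in MEF and 3525 in MEF B12, and by 1454 in OSKM but 4088 in OSKM B12. The gene *Proca1* ends 982 bases beyond the TES on the other strand, so signal past the TES cannot be assigned to one of them.

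IWS1 links SPT6 to mRNA export factors and to SETD2. *Iws1* (chr18:32067741-32104328, plus strand) had a density of 0.437 in MEF and 0.519 in MEF B12, beside 0.204 in OSKM but 0.481 in OSKM B12. Only OSKM lay far from the others, at 0.466 of MEF (interval 0.430 to 0.506). The covered share went from 68.8% in MEF to 40.7% in OSKM and was 69.2% in OSKM B12. In MEF the mark formed 2 peaks of 17827 and 7330 bases, and in OSKM it was split into 11 peaks of between 291 and 5263 bases. In OSKM B12 there were 6 peaks and the longest had 10991 bases, so the covered share was close to that in MEF while the longest block was shorter. The last exon, of 7179 bases, was mostly outside peaks. The last peak base lay 7448 bases before the TES in MEF, 7367 in OSKM, 4617 in MEF B12 and 4249 in OSKM B12. Of 5 equal parts of the gene body, counted from the TSS, part 5 was covered over 0% in MEF and OSKM, over 31.6% in MEF B12 and over 17.8% in OSKM B12.

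DSIF, of which *Supt5* encodes the large subunit, holds the polymerase at pause sites and then clamps it to DNA during elongation. *Supt5* (chr7:28314894-28338719, minus strand) had a density of 0.706 in MEF and 0.840 in MEF B12, beside 0.474 in OSKM but 0.903 in OSKM B12. OSKM B12 exceeded MEF by a ratio of 1.28 (interval 1.20 to 1.36), and OSKM was at 0.671 of MEF (interval 0.625 to 0.720). Its peak with the highest pileup ran from 6863 bases after the TSS to beyond the TES in MEF, with a fold enrichment over input of 5.86 that exceeded 99.8% of the peaks in that library. In OSKM this block was split near 10378 bases from the TSS, and the covered share was 70.8% against 73.0% in MEF. An antisense transcript, *Gm44709*, overlaps 3976 bases at the 3′ end of *Supt5*. These bases were covered over 100% in all 4 libraries, and the mark there cannot be assigned to 1 strand.

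The FACT genes had unlike lengths and unlike densities but close ratios of OSKM to MEF, a closeness not particular to this pair. FACT is a dimer of the products of *Supt16* and *Ssrp1* that binds H2A–H2B and H3–H4 while the polymerase passes. *Ssrp1* (chr2:85037234-85047109, plus strand) had a density of 0.722 in MEF and 0.871 in MEF B12, beside 0.440 in OSKM but 0.869 in OSKM B12. It carried 1 peak of between 8032 and 8239 bases in every library, and its covered share was 80.4%, 79.9%, 78.4% and 79.2% in the same order. Thus the extent of the mark on *Ssrp1* was nearly equal in all 4 libraries while the height was not: in OSKM the density was 0.609 of MEF (interval 0.544 to 0.682). The first 3 exons of 17 lay outside the peak in each library.

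*Supt16* (chr14:52160414-52197416, minus strand) had a density of 0.426 in MEF and 0.522 in MEF B12, beside 0.253 in OSKM but 0.517 in OSKM B12. Its OSKM value was 0.592 of MEF (interval 0.549 to 0.640), and the intervals of *Supt16* and *Ssrp1* for this ratio overlapped. Those of *Ctr9* (0.580), *Leo1* (0.585) and *Rtf1* (0.560) overlapped with both as well. With peaks of a −log10 q of 5 or more the pair differed, with log2 changes of −3.13 on *Supt16* and −0.66 on *Ssrp1*. The covered share went from 59.3% to 48.9% and was 65.0% in OSKM B12. Its long first intron was nearly free of the mark: in MEF, part 1 of the gene body was covered over 10.9% and part 2 over 17.3%, compared with 100% of part 3. The 3′ end of *Supt16* overlaps 3133 bases of *Rpgrip1* on the other strand, and these were covered over 100% in all 4 libraries.

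**Figure D3:**
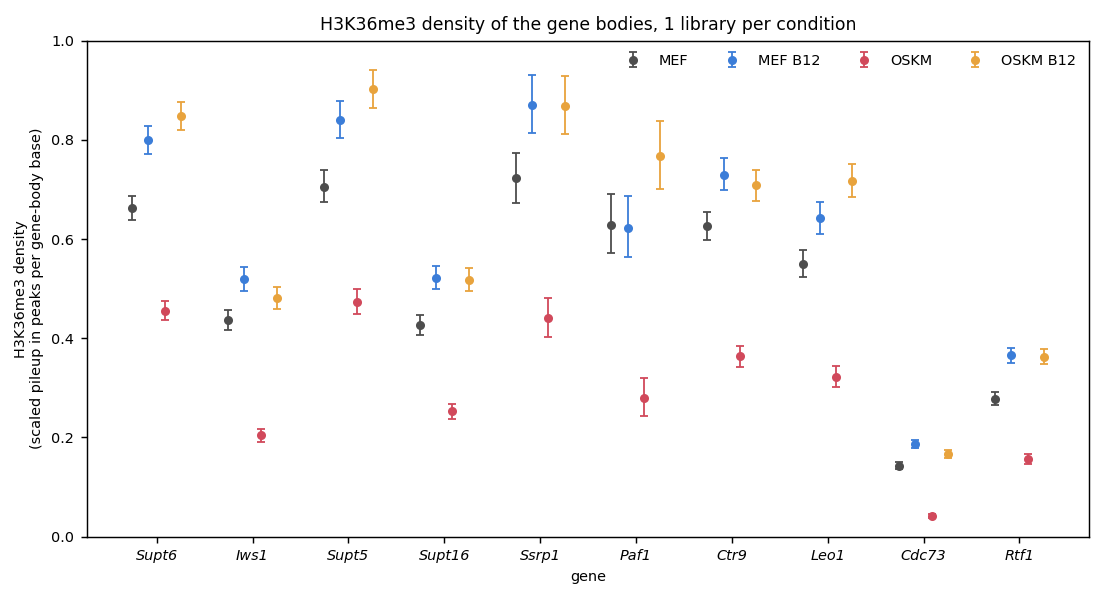
H3K36me3 density of the 10 gene bodies (scaled pileup in peaks per gene-body base) in each library, with 95% intervals that cover counting error only. The OSKM point is the lowest of the 4 for each gene, from 0.0418 in *Cdc73* to 0.474 in *Supt5*.

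The 5 PAF1 complex genes of the set spanned most of the range of the whole set. The complex travels with the polymerase and recruits the enzymes that ubiquitinate H2B. *Paf1* (chr7:28392951-28399388, plus strand), which encodes the subunit that names the complex, had a density of 0.629 in MEF and 0.623 in MEF B12, beside 0.280 in OSKM but 0.768 in OSKM B12. The MEF and MEF B12 values did not differ beyond counting error (ratio 0.990, interval 0.863 to 1.13). The OSKM value was 0.445 of MEF (interval 0.376 to 0.525), and OSKM B12 was 2.74 times OSKM (interval 2.33 to 3.24). The log2 changes of *Paf1*, −1.04 from MEF to OSKM and 1.31 from OSKM to OSKM B12, moved both ways with the setting. They were −0.64 and 0.93 with the body extended by 5 kb, and −0.55 and 0.88 over the bases called in all 4 libraries. At a −log10 q of 5 or more they were −1.73 and 2.00. The covered share was 75.5% in MEF and 63.8% in MEF B12, beside 49.2% in OSKM but 73.4% in OSKM B12. The widest differences lay in part 2 of the body, which was covered over 77.4%, 18.9%, 6.37% and 67.1% in the same order. The peak of *Paf1* reached 11660 bases past the TES in MEF and 9415 in OSKM. The gene *Samd4b* ends 133 bases beyond the TES of *Paf1* on the other strand, so most bases of this peak lie in *Samd4b* and the mean pileup used for *Paf1* was taken mainly over them.

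CTR9 is the scaffold subunit on which the other subunits assemble. *Ctr9* (chr7:111028951-111056377, plus strand) had a density of 0.626 in MEF and 0.730 in MEF B12, beside 0.363 in OSKM but 0.708 in OSKM B12. Its OSKM density was 0.580 of that in MEF (interval 0.539 to 0.624). Its covered share of 91.7% was the highest of the 10 genes in MEF, and it was 89.3% in MEF B12, 68.0% in OSKM but 89.9% in OSKM B12. A single MEF peak of 25263 bases became 8 peaks in OSKM, the longest of 7700 bases, and a single peak of 24663 bases in OSKM B12. The widest difference lay in part 1 of the body, covered over 58.3% in MEF and 6.71% in OSKM.

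LEO1 forms a dimer with PAF1 that binds histones. *Leo1* (chr9:75441536-75466432, plus strand) had a density of 0.550 in MEF and 0.642 in MEF B12, beside 0.322 in OSKM but 0.718 in OSKM B12. The ratio of OSKM to MEF was 0.585 (interval 0.538 to 0.635) and that of OSKM B12 to MEF was 1.30 (interval 1.22 to 1.40). The peaks on *Leo1* numbered 4 in MEF and 4 in MEF B12, 6 in OSKM but 2 in OSKM B12. The mark ended 2575 bases before the TES in OSKM, and ran past the TES by 1569 bases in MEF and 1706 in OSKM B12.

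RTF1 stimulates H2B ubiquitination and binds DSIF, and in mammals it is less tightly held in the complex. *Rtf1* (chr2:119675068-119735407, plus strand) had a density of 0.278 in MEF and 0.365 in MEF B12, beside 0.156 in OSKM but 0.363 in OSKM B12. Its OSKM density was 0.560 of that in MEF (interval 0.520 to 0.604). MEF B12 was at 1.31 of MEF (interval 1.23 to 1.40), beside 1.31 on *Cdc73* (interval 1.23 to 1.40), the highest such ratios of the set. With peaks of a −log10 q of 5 or more, the log2 changes of *Iws1* (0.39), *Supt16* (0.37) and *Leo1* (0.33) exceeded those of *Rtf1* (0.31) and *Cdc73* (0.21). Raw pileup gave 0.20 on *Rtf1* and 0.17 on *Cdc73*, beside 0.34 and 0.30 with scaled pileup. In MEF, the covered share increased from part to part towards the 3′ end, from 0% of part 1 through 15.9%, 40.7% and 86.7% to 96.1% of part 5. In OSKM, part 3 was covered over 22.2% and part 5 over 85.8%. The broad spread of its 5′ border came from short, weak peaks in intron 1, such as the one that began 4398 bases from the TSS in MEF B12 and in no other library.

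Parafibromin, the tumour suppressor encoded by *Cdc73*, is the subunit that was marked least. *Cdc73* (chr1:143598800-143702893, minus strand) had a density of 0.143 in MEF and 0.187 in MEF B12, beside 0.0418 in OSKM but 0.166 in OSKM B12. Its OSKM density was 0.293 of that in MEF (interval 0.265 to 0.324), and OSKM B12 was 3.96 times OSKM (interval 3.59 to 4.39). The mark was scattered over 24 peaks in MEF and 24 in MEF B12, 12 in OSKM but 18 in OSKM B12, and these covered 29.0%, 34.2%, 9.45% and 31.2% of the body. Peaks touched 9 of 17 exons in MEF and 1 in OSKM.

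*Cdc73* also had the mark at the other end of the gene. In MEF its parts 1 and 2 were covered over 55.6% and 53.4%, and its parts 3, 4 and 5 over 5.26%, 18.7% and 11.97%. The mean over the 10 genes went from 25.4% of part 1 to 88.5% of part 4 and 76.6% of part 5. Over all marked genes the mean rose from 13.2% to 72.1%. *Iws1* also ended lower than it began in MEF, with 61.2% of part 1 and 0% of part 5, although its part 4 was covered over 98.2%. The last exon of *Cdc73* has 9758 bases, and the last peak base in MEF lay 9418 bases before the TES. Within the gene body lies *B3galt2*, on the other strand, and the 13951 shared bases were covered over 7.86% in MEF and 2.06% in OSKM.

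**Figure D4:**
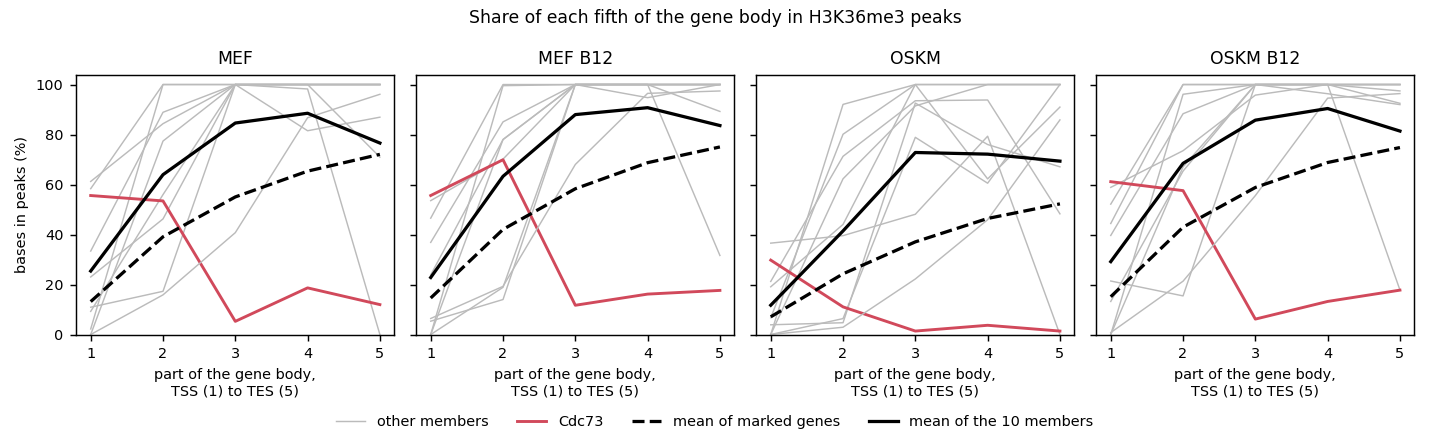
Share of each of 5 equal parts of the gene body inside H3K36me3 peaks, from the TSS (1) to the TES (5), for the 10 genes (grey, with *Cdc73* in red), their mean (black) and the mean of all marked genes (dashed), 1 panel per library. *Cdc73* falls from 55.6% in part 1 to 11.97% in part 5 in MEF, whereas the mean of all marked genes rises from 13.2% to 72.1%. *Iws1*, among the grey lines, also ends below its start in MEF, at 61.2% in part 1 and 0% in part 5.

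Exons were covered more than introns on most of the genes, as on most marked genes. In MEF the covered share of exon bases was higher than that of intron bases in 8 of 10 genes (80.2% of marked genes). It was so in 8 of 10 in MEF B12 (80.0%), 8 of 10 in OSKM (76.9%) and 7 of 10 in OSKM B12 (79.1%). Among the 8 genes with exons above introns, *Rtf1* had the widest gap in MEF, with 89.9% of exon bases and 44.4% of intron bases in peaks. *Iws1* and *Cdc73* went the other way in every library, by a wider gap than that of *Rtf1* in the case of *Iws1*, with 21.0% of exon and 85.8% of intron bases in *Iws1* in MEF and 10.4% and 31.3% in *Cdc73*. Both are the genes with the longest last exons of the set. *Ctr9* had 89.1% of exon and 90.1% of intron bases in peaks in OSKM B12.

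The density combines how much of a gene is covered and how high the peaks are, and these did not move in step. Over the bases called in all 4 libraries, the mean scaled pileup in OSKM was between 0.625 (*Ssrp1*) and 0.858 (*Cdc73*) of that in MEF. On *Cdc73*, where these bases make up 6.64% of the body, the ratio of 0.858 stood beside a ratio of density of 0.293. On *Ssrp1*, where they make up 78.4%, the ratio of 0.625 stood beside 0.609. From OSKM to OSKM B12 the ratio of the same measure was between 1.32 (*Cdc73*) and 1.95 (*Ssrp1*). Bases called in all 4 libraries are those that stayed in peaks in OSKM, so these ratios leave out the bases that left the peaks. They can lie closer to 1 than the change over the whole gene body. Pileup is known per peak only, so each base carries the mean of its whole peak, which can reach beyond the shared bases. Where a long MEF peak was split in OSKM, the means were thus taken over unlike stretches, and the ratio does not measure height at the shared bases alone. Summed over the 10 genes, 62335 bases were in a MEF peak and in no OSKM peak, and 82.6% of these were in an OSKM B12 peak, compared with 76.0% of such bases over all marked genes. The sum is weighted by long genes, since *Cdc73* held 21892 of these bases and *Rtf1* 11262. Single genes ran from 80 of 201 bases on *Ssrp1* to 3500 of 3500 on *Leo1*.

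Other marked genes of the elongation machinery differed in the same directions from MEF to OSKM and from OSKM to OSKM B12. A list of 28 genes held the elongation kinase P-TEFb, its inhibitors, NELF, the super elongation complex, the kinases CDK12 and CDK13, the H2B ubiquitin ligases, further histone chaperones and *Setd2*. Of these, 26 were marked genes with at least 4 exons, the others being *Hexim1*, with 1 exon, and *Elof1*, with 3. From MEF to OSKM, 20 of the 26 were at least 1.5-fold lower (68.6% of marked genes) and 0 at least 1.5-fold higher, with a median log2 change of −0.86. From OSKM to OSKM B12, 26 of 26 were at least 1.5-fold higher (95.2% of marked genes), with a median of 1.00. From MEF to MEF B12 and from MEF to OSKM B12, 0 of 26 were at least 1.5-fold higher, with medians of 0.22 and 0.20. Some were slightly lower in OSKM B12 than in MEF, such as *Cdk13* (log2 change −0.026) and *Tcea1* (−0.0081), and the rest were higher. The members were all higher, as were 91.7% of marked genes. Relative to the median of all marked genes, the median of the members was −0.000885. The densest in MEF were the partner H2B ubiquitin ligases *Rnf40* (0.810) and *Rnf20* (0.613), which work with the PAF1 complex. *Wdr61*, the further PAF1 complex subunit, had densities of 0.581, 0.703, 0.399 and 0.701 in MEF, MEF B12, OSKM and OSKM B12, and a log2 change of −0.49 from MEF to OSKM. The lowest in MEF were *Hexim1*, an inhibitor of P-TEFb, which had no peak in MEF or OSKM, and *Cdk13* (0.110). The largest fall from MEF to OSKM was that of *Tcea1*, which encodes the elongation factor TFIIS, with densities of 0.255 and 0.0566 and a log2 change of −1.52.

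Among the remaining marked genes, those closest to the median profile of the 10 genes over the 4 libraries (Euclidean distance on the log2 scale with 0.05 added) were *Utp4*, *Ormdl2* and *Rpl27*, at distances of 0.03, 0.04 and 0.07. The densities of *Utp4* were 0.586, 0.639, 0.299 and 0.727 in MEF, MEF B12, OSKM and OSKM B12, beside median densities of the 10 genes of 0.588, 0.632, 0.301 and 0.713.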

How the data were processed

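H3K36me3 and input ChIP–seq libraries (8 in all, 4 of them H3K36me3) were grouped by their GEO labels. The labels mark the precipitated libraries as H3K36me3, while their extraction protocol spells the antibody's target H3K3me3. The doxycycline dose is that of the labels, in µg/ml, while the study's methods give the same figure in mg/ml. The authors aligned the reads with Bowtie 0.12.9 to mm10, merged runs, removed duplicates and called broad peaks with MACS2 2.2.6 in each library against its own input, with q-value cut-offs of 0.05 and 0.1 and an effective genome size of 3209286105 bases, which is larger than the mouse assembly. The deposited pileup is a signal that was not scaled to depth. The deposited fold enrichment is a ratio to the local input. Significance was deposited as the −log10 p-value and −log10 q-value of each peak, used here only to filter peaks. Inputs entered only through the authors' peak calling.

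Gene bodies were the longest protein-coding transcripts of GENCODE M21. Sequences came from RefSeq GRCm38.p6. Computation used Python 3.11, numpy 2.4.6 and scipy 1.17.1. Density, covered share and scaled pileup were computed as defined above, log2 changes with a pseudocount of 0.05, which shrinks the changes of weakly marked genes, and a gene counted as touched by a peak at 1 shared base. Counting intervals are exact 95% intervals from the estimated tags (Poisson for a density, binomial for a ratio), with tags estimated from pileup, covered bases and fragment length. Depth, between 29046913 and 33399267 tags, limits the weakest enrichment that could be called. The steps were tested on simulated data.

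The members and lists were chosen with earlier results of these data known. Named beside the members were, of the other elongation genes, the 2 densest and 2 least dense in MEF and the one with the largest fall, any with no peak in any library (none), the 3 marked genes nearest to the members' median profile, and genes that overlap or adjoin a member. *Wdr61* was named in addition, after its values were seen. No test across genes was run, since each condition had 1 library. The alternatives were stricter peaks, an equal number of peaks, merged peaks, other gene bodies, other scalings, shared bases and other pseudocounts.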

Additional observations from a re-analysis of the deposited data

Results flagged for a closer look

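On 3 of the 10 genes, the difference that came with B12 had opposite signs without and with OSKM induction, in density, covered share or both, as it had on 28.7% of marked genes. With 1 library per condition these differences were not tested, and no value here says whether they exceed the spread between cultures. On *Paf1*, density was lower by a margin within counting error in MEF B12 than in MEF (difference −0.00622) and higher in OSKM B12 than in OSKM (difference 0.488). The lower value in uninduced cells was not stable: the log2 change of *Paf1* from MEF to MEF B12 was −0.013, but 0.11 with the gene body extended by 5 kb and 0.23 over the bases called in all 4 libraries. The covered share of *Paf1* differed by −11.7 percentage points in uninduced cells and by 24.2 in induced cells. On *Ctr9*, the covered share differed by −2.36 points in uninduced cells and by 21.9 in induced cells. On *Ssrp1*, it differed by −0.537 points in uninduced cells and by 0.810 in induced cells, both of which are small beside the share itself (78.4% to 80.4%).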

How the results depend on the processing

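Of 480 member changes recomputed under the alternatives, 459 kept their sign. Part of this count was fixed in advance, since a pseudocount cannot alter a sign and a minimum fold enrichment of 2 altered no member value. Called changes reversed in 9 cases, all when changes were taken relative to the median of marked genes, where 22 of 40 kept their sign. That scaling removes the general shift: the medians of the 10 genes became 0.026 (MEF to OSKM), −0.025 (OSKM to OSKM B12), 0.033 (MEF to MEF B12) and −0.000885 (MEF to OSKM B12), 0 genes remained at least 1.5-fold lower and 0 at least 1.5-fold higher. Among the genes at least 1.5-fold lower from MEF to OSKM, *Supt16* (0.053), *Ssrp1* (0.051), *Leo1* (0.017) and *Rtf1* (0.035) then changed sign. From OSKM to OSKM B12, *Supt6* (−0.15), *Supt5* (−0.12), *Supt16* (−0.073), *Ssrp1* (−0.073) and *Ctr9* (−0.10) did so. Without an external standard, a general shift between libraries and a genome-wide change of the mark cannot be told apart.

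Restricting to a −log10 q of 5 or more gave mean covered shares of 59.1%, 61.5%, 24.0% and 61.6% (MEF, MEF B12, OSKM, OSKM B12) and medians of −1.98 from MEF to OSKM and 2.24 from OSKM to OSKM B12. Merging peaks at most 1 kb apart gave mean covered shares of 72.2% in MEF B12 and 59.3% in OSKM. Extending the gene body by 5 kb gave 62.7%, 65.0%, 50.4% and 66.1%. Raw pileup gave medians of 0.81 (OSKM to OSKM B12), 0.089 (MEF to MEF B12) and 0.13 (MEF to OSKM B12). Bases called in all libraries gave −0.53 from MEF to OSKM, with 1 gene at least 1.5-fold lower, and 0.70 from OSKM to OSKM B12. A pseudocount of 0.2 gave −0.51 with 2 genes at least 1.5-fold lower, 0.70, and 0.19 from MEF to MEF B12. The count of genes at least 1.5-fold lower from MEF to OSKM thus ranged from 0 to 10 over the settings (10 with fold enrichment minus 1 in place of scaled pileup, 9 at a −log10 q of 5 or more). No paired analysis was possible because the conditions hold 1 library each. Leaving out a replicate was not possible for the same reason.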

Other observations

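Summed over the 10 genes, bases that left the peaks were richer in repeats than those that stayed, as over all marked genes. The assembly marks 28.1% of the gene-body bases of the 10 genes as repeats. The share was 22.9% among bases in both a MEF and an OSKM peak (147755 bases) and 33.5% among bases in a MEF peak and in no OSKM peak (62335 bases). Over all marked genes the shares were 25.4% of the gene bodies, 19.1% of bases in both and 24.9% of bases in MEF only. On *Ctr9* they were 20.6% and 31.5%, and on *Paf1* 16.2% and 38.3%. On *Leo1* the order was the other way, with 27.1% and 26.6%. The part of repeats in the calls was not tested.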
